A study of Drosophila melanogaster with 4 samples.

Results

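The genes described here encode the vacuolar-type proton pump (V-ATPase) of Drosophila melanogaster, and were chosen as every annotated gene whose symbol begins with Vha. There are 33 such genes among the 14373 genes and unmatched transcripts of the series. By subunit, 13 of them belong to the V1 sector, 18 to the V0 sector and 2 to the accessory protein Ac45. The RNA came from whole w118 embryos that were 0–1 h or 4–5 h old counted from egg laying, and each of these stages has 2 replicate libraries. The embryos carried no treatment or transgene that the labels name, and RNA was taken from the supernatant of a spun homogenate of dechorionated embryos. Native RNA molecules were read with the Nanopore direct RNA method. The input was total RNA without prior selection for poly(A) tails. Annotated rRNA genes held 0.18% and 0.05% of the reads at 0–1 h and 0.93% and 0.86% at 4–5 h. Whether library preparation favoured tailed RNA, and whether tail length altered the read counts, was not tested. The labels do not say whether replicates were separate collections, so the p-values rest on a spread between libraries that could be technical alone.

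The V-ATPase uses ATP to pump protons into endosomes, lysosomes, secretory vesicles and, in some epithelia, out of the cell. Its V1 sector lies in the cytosol, where a ring of A and B subunits hydrolyses ATP around a rotor of D and F, held by stalks of C, E, G and H. Its V0 sector lies in the membrane, where a ring of c and c″ subunits turns against subunit a, with d joining the ring to the rotor and the small subunit e beside it. In Drosophila many subunits have several gene copies, and several of the spare copies are known for expression in testis. Early embryos rely on mRNA laid down by the mother until their own genome is transcribed.

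The libraries held 573843 and 557424 reads at 0–1 h and 883138 and 429534 at 4–5 h, in replicate order, which is the order of all lists of 4 values here. The stage labels held in the marker genes: 5 maternal egg mRNAs (dhd, osk, nanos, exu, bcd) together had 6987, 6703, 96 and 50 reads, and 4 zygotic genes (Tom, Kr, D, slp1) had 20, 31, 1299 and 712. Most of these came from dhd (5202, 4936, 66 and 34) and from Tom (14, 18, 1087 and 571). The maternal marker bcd, with 20, 20, 7 and 3 reads, was not called (adjusted p = 0.1, edgeR). The 5 follicle cell markers had 0, 0, 2 and 2 reads. The 4 hemocyte markers had 95, 98, 48 and 27, with Hml and Pxn at 0 and the rest from crq and srp. The 4 testis and sperm markers had 49, 60, 4 and 3, with dj and Mst87F at 0 and nearly all of them from bam. The 3 markers of the Malpighian tubule and hindgut primordia had 4, 7, 63 and 38, mostly from Kr (3, 6, 60 and 34). Kr is also in the zygotic list above, while byn had 1, 1, 2 and 3 reads and ct 0, 0, 1 and 1. The genes of cytosolic ribosomal proteins held 23.3%, 26.2%, 50.2% and 49.8% of the reads; the part of this and of the marker lists in the results was not tested. In whole embryos, fewer cells of a type and less RNA per cell cannot be told apart.

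Each subunit was supplied chiefly from 1 gene, and most spare copies were not seen. The count filter, which needs about 10 reads in at least 2 libraries, passed 16 of the 33 genes, and these 16 covered all 13 subunits and Ac45. Of the 17 others, 10 had no read in any library, and the 7 with reads had at most 19 in all 4 libraries together. The 17 summed to 4, 2, 24 and 8 reads. The 10 unseen genes were Vha68-3 (subunit A), Vha36-2 (D), Vha14-2 (F), Vha100-3, Vha100-4 and Vha100-5 (a), Vha16-2, Vha16-4 and Vha16-5 (c) and VhaPPA1-2 (c″). A count of 0 allows up to 3 reads, or 3.45, 3.66, 5.51 and 9.99 CPM (reads per 1e6 reads of TMM-scaled library size), for counting error only. Reads of Vha36-3 (1 in 0–1 h replicate 2), Vha16-3 (2), VhaAC39-2 (3), VhaM9.7-d (1) and VhaAC45RP (1, these last 4 in 4–5 h replicate 1) were no more than that limit.

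Seen and unseen copies lay side by side in the genome (annotation of BDGP6). The subunit A gene Vha68-2 (chromosome 2L 12974322–12978607) had 292, 290, 9 and 8 reads, while Vha68-3, 178 bp downstream on the same strand with no gene between, had none. The subunit a gene Vha100-2 (3R 18390323–18399169) had 185, 155, 5 and 3 reads, and Vha100-4, 517 bp away on the same strand, had none. The c″ gene VhaPPA1-1 and its unseen copy VhaPPA1-2 lay 2052 bp apart with 1 gene between. In each of these 3 pairs 1 member alone gave reads. Vha16-2 and Vha16-3, 985 bp apart, had 0 and 2 reads in all. The active copy of subunit c, Vha16-1 (2R 6625242–6633090), stood on another arm.

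**Figure D1:**
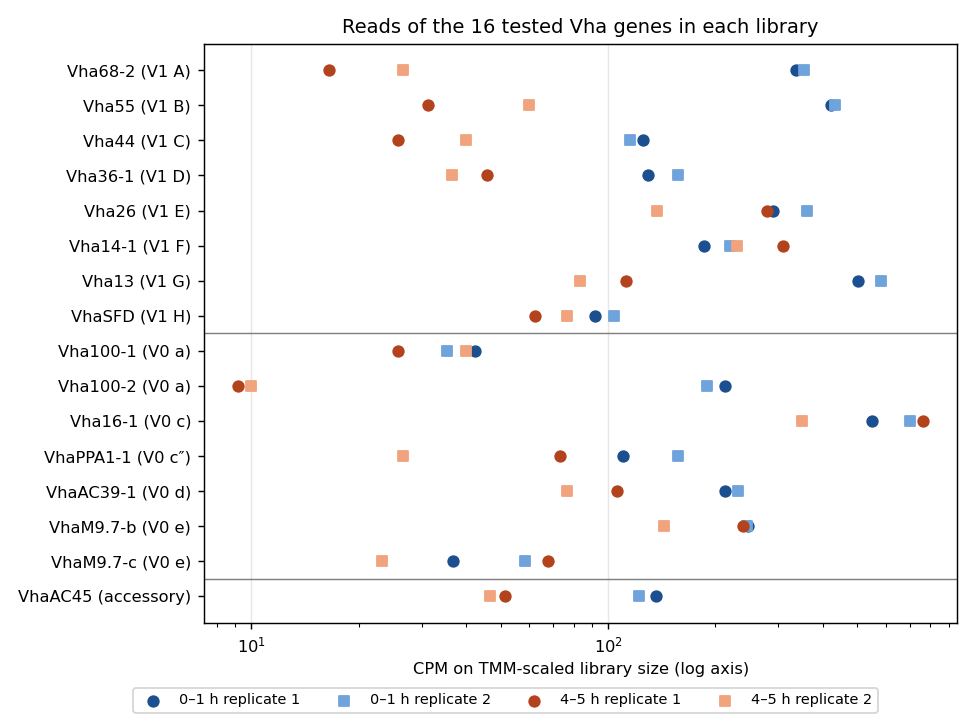
CPM on TMM-scaled library size (x, log axis) of the 16 tested Vha genes (y, with sector and subunit), with 1 point per library. Blue points are 0–1 h and orange points 4–5 h libraries. The 4–5 h points of Vha68-2, Vha55 and Vha100-2 lie far left of the 0–1 h points, while those of Vha16-1, Vha100-1 and VhaM9.7-c overlap them.

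Most of the pump's mRNAs were lower at 4–5 h than at 0–1 h, by very different amounts. Of 16 tested genes 10 fell and 0 rose (edgeR quasi-likelihood test, Benjamini-Hochberg adjusted p under 0.05 over all genes). Over all 6042 tested genes 31.5% were called lower and 28.6% higher. No Vha gene was higher at an unadjusted p under 0.05, where the count was 0, and DESeq2 called 0 higher and 9 lower, where it called 21.5% of all genes higher and 18.6% lower. At least 4-fold falls were called in 4 of the 16, against 14.6% of all genes. In 12 of the 16 both 4–5 h libraries lay below both 0–1 h libraries in CPM, against 42.1% of all genes. The median log2 change was −1.27, beside −0.10 for all tested genes. A gene passes the filter with reads at 1 stage only, so these counts do not stand for all 33 genes.

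The size of each change, and the direction for Vha14-1 and VhaM9.7-c, depended on how the libraries were scaled to each other. With TMM scaling, which centres most genes near 0, the Vha median lay −1.17 from the median of all genes. With library size only the Vha median was −2.47 and the median of all genes −1.29, a distance of −1.18, and all 16 Vha genes were called lower, against 63.3% of all genes and 10.9% called higher. With ribosomal protein and rRNA genes left out of the library size, 14 of 16 were called lower, against 44.6% of all genes, and 0 higher, against 18.8%. The share of all reads that fell on the 33 genes was 0.551% and 0.598% at 0–1 h and 0.140% and 0.100% at 4–5 h. Without ribosomal protein and rRNA genes in the total it was 0.720%, 0.811%, 0.286% and 0.203%. The 4–5 h libraries were lower on both scales, and the stages did not overlap. With 2 libraries against 2, a two-sided exact permutation test of a single value cannot give a p below 0.333.

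**Figure D2:**
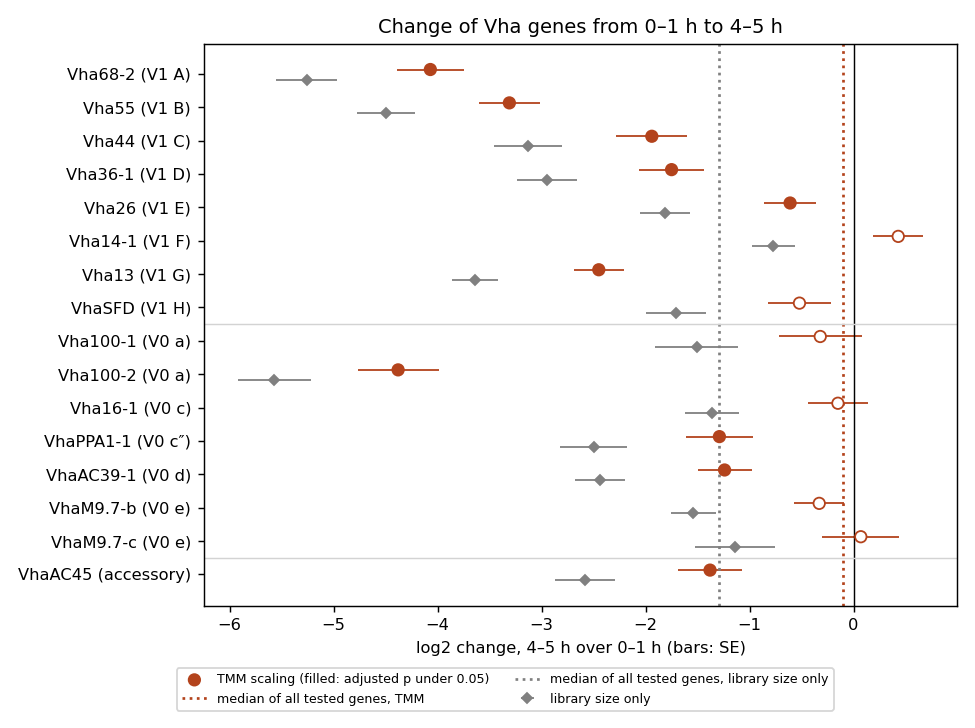
Log2 change from 0–1 h to 4–5 h (x) with SE bars for each tested Vha gene (y), with TMM scaling (circles, filled where adjusted p is under 0.05) and with library size only (grey diamonds). Dotted lines mark the medians of all tested genes, −0.10 and −1.29. Vha100-2 (−4.38), Vha68-2 (−4.07) and Vha55 (−3.31) lie farthest left, and Vha14-1 farthest right (0.43, or −0.77 with library size only).

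In the V1 sector 6 of 8 tested genes fell, beside 31.5% of all tested genes, with a median log2 change of −1.85. The catalytic ring was among the most reduced. Vha68-2, which encodes the ATP-hydrolysing subunit A, had 292 and 290 reads at 0–1 h and 9 and 8 at 4–5 h. It fell 16.7-fold, with a mean of 345 ± 12.9 CPM at 0–1 h and 21.6 ± 7.16 CPM at 4–5 h (mean ± SD, n = 2 per stage; log2 change −4.07, SE 0.32, adjusted p = 1.9e-19 by edgeR). Vha55 (3R 12623762–12627829), the only gene of subunit B, had 367, 355, 17 and 18 reads and fell 9.94-fold, from 427 ± 7.99 to 45.6 ± 20.3 CPM (SE 0.29, adjusted p = 1.4e-17, edgeR). The low 4–5 h values held in both replicates of each gene, with no overlap between stages.

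Stalk and rotor genes of V1 divided. Vha13 (3R 19643018–19644386), the only gene of the stalk subunit G, had 438, 478, 61 and 25 reads and fell 5.45-fold, with 543 ± 56.4 CPM before and 97.6 ± 20.3 CPM after (log2 change −2.45, SE 0.24, adjusted p = 8.4e-15, edgeR). Vha44, for subunit C, which ties V1 to V0, had 109, 94, 14 and 12 reads and fell 3.83-fold (SE 0.34, adjusted p = 5.7e-07, edgeR). Vha36-1, the rotor subunit D in use, had 112, 129, 25 and 11 reads and fell 3.37-fold (SE 0.31, adjusted p = 1e-06, edgeR). These 3 genes were lower in both 4–5 h libraries by more than the spread within either stage.

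The E subunit gene Vha26, the partner of G in the stalks, had 252, 296, 152 and 41 reads. Its call was marginal, at 325 ± 50.5 against 208 ± 101 CPM (log2 change −0.61, SE 0.25, adjusted p = 0.0318, edgeR), and 4–5 h replicate 1 at 279 CPM nearly met 0–1 h replicate 1 at 290 CPM. The adjusted p was 0.0604 without 0–1 h replicate 1, 0.299 without 0–1 h replicate 2, 0.403 without 4–5 h replicate 2 and 0.193 with DESeq2. Without 4–5 h replicate 1 the log2 change was −1.25 (adjusted p = 0.00252).

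The genes of subunits F and H did not pass. Vha14-1 (2R 15679426–15680084), the rotor subunit F in use, had 162, 180, 169 and 69 reads, which is 186, 220, 310 and 230 CPM. Both 4–5 h values were above both 0–1 h values with TMM scaling (log2 change 0.43, SE 0.24, adjusted p = 0.111, edgeR). That direction depends on the scaling: the change was −0.77 with library size only (adjusted p = 0.00221) and 0.61 without 4–5 h replicate 2 (adjusted p = 0.0197). D and F form the rotor, and their genes thus had log2 changes of −1.75 and 0.43, which were not tested against each other. VhaSFD, for subunit H, a regulator of V1 activity, had 80, 85, 34 and 23 reads (log2 change −0.52, SE 0.30, adjusted p = 0.124, edgeR). Its locus overlaps mir-1006 and further annotated entries on the same strand, and their part in its reads was not examined.

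In the V0 sector 3 of 7 tested genes fell, beside 31.5% of all tested genes, with a median log2 change of −0.33. Vha100-2, the main copy of subunit a at 0–1 h and part of the proton path, fell 20.8-fold, with 201 ± 16.6 CPM at 0–1 h and 9.59 ± 0.577 CPM at 4–5 h (log2 change −4.38, SE 0.39, adjusted p = 3.4e-17, edgeR). Its log2 change and that of Vha68-2 were within their SEs of each other, and on log2(TPM + 1) Vha68-2 had the larger fall (−5.44 against −5.20). The stages of Vha100-2 were far apart, at 189 CPM or more against 9.99 CPM or less.

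VhaPPA1-1, the c″ subunit of the ring, had 96, 129, 40 and 8 reads and fell 2.45-fold (SE 0.32, adjusted p = 0.00043, edgeR), although its adjusted p was 0.0507 without 0–1 h replicate 2. Its log2 change of −1.29 was −2.32 without 4–5 h replicate 1 and −0.86 without 4–5 h replicate 2. VhaAC39-1 (X 3880748–3882967), for subunit d, which couples the ring to the rotor, had 185, 189, 58 and 23 reads and fell 2.36-fold, from 222 ± 12.7 to 91.5 ± 21.1 CPM (SE 0.26, adjusted p = 3e-05, edgeR). In both genes 4–5 h replicate 2 was the lowest library.

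Vha16-1, which forms the c ring and had the most reads of all Vha genes, had 478, 574, 416 and 105 reads. That is 549 and 700 CPM at 0–1 h and 764 and 350 CPM at 4–5 h, so that the 4–5 h replicates lay on either side of the 0–1 h pair. It did not pass (log2 change −0.15, SE 0.29, adjusted p = 0.685, edgeR), and its change was −0.83 without 4–5 h replicate 1 (adjusted p = 0.0144). VhaM9.7-b, the main copy of the small subunit e, had 215, 201, 130 and 43 reads (log2 change −0.33, SE 0.24, adjusted p = 0.231), with −0.78 without 4–5 h replicate 1 (adjusted p = 0.0216). VhaM9.7-c, another copy of e, had 32, 48, 37 and 7 reads (log2 change 0.07, SE 0.37, adjusted p = 0.884, or −1.14 with library size only and −1.02 without 4–5 h replicate 1). It overlaps Teh2 on the same strand, so its reads are uncertain. For these 3 genes the call or direction thus rested on 4–5 h replicate 1 or on the scaling.

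The accessory gene VhaAC45, whose product binds V0, had 118, 100, 28 and 14 reads and fell 2.60-fold (log2 change −1.38, SE 0.31, adjusted p = 6.4e-05, edgeR). ATP6AP2, the other accessory protein of the pump, is named VhaM8.9 in older annotations and falls outside the naming rule. It had 130, 149, 20 and 9 reads (log2 change −2.27, SE 0.32, adjusted p = 1.5e-09, edgeR). Both accessory genes were lower in each 4–5 h library than in any 0–1 h library.

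Set side by side, the sectors differed in the shares of their reads. V1 genes took 59.6% (1815 of 3044 reads; exact 95% Clopper-Pearson interval 57.9–61.4%) and 59.0% (57.3–60.7%) of the V1 and V0 reads at 0–1 h. At 4–5 h they took 40.3% (485 of 1204; 37.5–43.1%) and 50.7% (211 of 416; 45.8–55.6%). The V1 share was lower in both 4–5 h libraries, but those differed from each other by more than counting error. Without Vha16-1, a check chosen once the values were known, the shares were 70.7%, 71.7%, 61.5% (58.1–65.0%) and 67.8% (62.3–73.0%). The interval of the last takes in both 0–1 h shares. The difference was not tested beyond this, given the smallest p of 0.333.

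Levels between genes are given per length, as the authors' deposited TPM summed per gene. In direct RNA sequencing 1 read is 1 molecule, so dividing by length lifts short transcripts, and the order by reads was another. By reads the first at 0–1 h were Vha16-1 (625 ± 107 CPM), Vha13 (543 ± 56.4 CPM) and Vha55 (427 ± 7.99 CPM), with Vha14-1 at 203 ± 23.6 CPM. At 4–5 h they were Vha16-1 (557 ± 293 CPM), Vha14-1 (270 ± 56.8 CPM) and Vha26 (208 ± 101 CPM). At 0–1 h the highest TPM among the pump's genes was that of Vha13 at 1070 ± 55.6, followed by VhaM9.7-b at 498 ± 36.7 and Vha14-1 at 453 ± 14.7, all with main transcripts of 703 nt or less. Vha16-1 had 218 ± 19.3 TPM. The next, Vha55 at 160 ± 11.2, Vha36-1 at 160 ± 9.47, Vha26 at 151 ± 13.7 and Vha68-2 at 141 ± 6.48, did not differ between neighbours beyond their spread. The main A and B genes of the catalytic ring were thus near equal at 0–1 h, with Vha68-2 at 0.868 and 0.898 of Vha55 in TPM. At 4–5 h the ratio was 0.570 and 0.488, on only 9 and 8 reads of Vha68-2 against 17 and 18 of Vha55. These ratios leave out the copy Vha68-1. Summed over its genes, subunit A had 2.37 and 4.43 TPM at 4–5 h, against 2.93 and 6.2 TPM for B. No difference between A and B was tested.

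**Figure D3:**
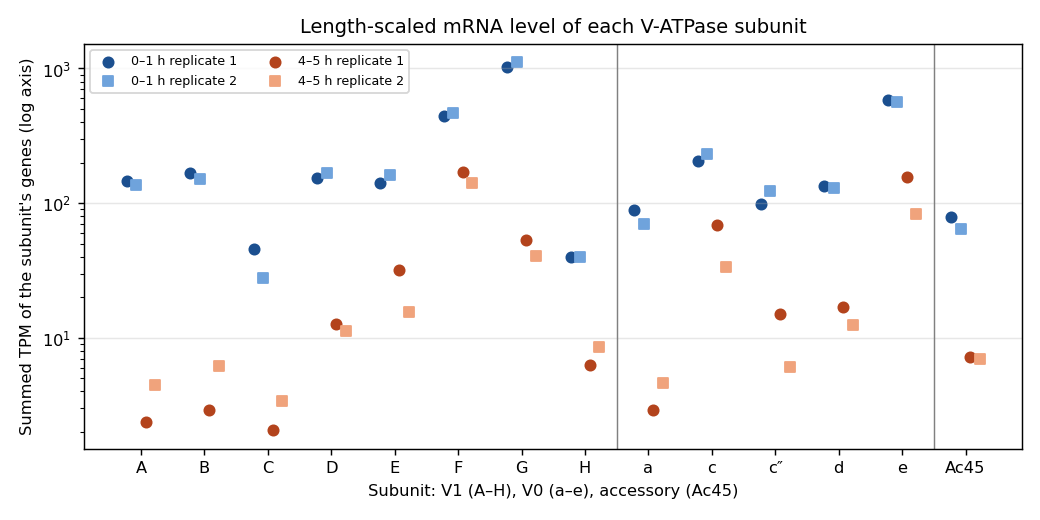
Summed TPM of the genes of each subunit (y, log axis) by subunit (x, V1, then V0, then Ac45), with 1 point per library. Subunits A, B, C and a are below 7 TPM in both 4–5 h libraries, while F and e stay above 83 TPM.

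At 4–5 h the order by TPM was another. Vha14-1 led with 156 ± 22.2 TPM, then VhaM9.7-b with 91.8 ± 35.5, Vha16-1 with 49.9 ± 23.2 and Vha13 with 47.0 ± 9.03. Across replicates VhaM9.7-b and Vha16-1 nearly met, at 66.7 TPM in the lower library of the first and 66.3 TPM in the higher library of the second. Within a library VhaM9.7-b was the higher, at 117 against 66.3 TPM in 4–5 h replicate 1 and 66.7 against 33.5 TPM in replicate 2. Vha16-1 and Vha13 overlapped. Vha68-2 and Vha55 were at 2.35 ± 0.959 and 4.57 ± 2.31 TPM. The TPM of Vha68-2 per TPM of Vha16-1, the ATPase over the proton ring, went from 0.713 and 0.589 to 0.0252 and 0.0903, and that of Vha55 per Vha14-1 from 0.379 and 0.328 to 0.0171 and 0.0443. In both ratios the stages did not overlap, and the 4–5 h replicates differed by more than 2-fold. Each sets a gene called lower over a gene not called, so the lower ratio adds no separate evidence. By reads Vha55 was above Vha14-1 at 0–1 h, with 367 and 355 against 162 and 180. Across the 16 genes the mean TPM spanned 82.1-fold at 0–1 h and 189-fold at 4–5 h.

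The copy in use changed for subunit a. Vha100-2 gave 83.3% (185 of 222 reads; exact interval 77.8–88.0%) and 84.2% (155 of 184; 78.2–89.2%) of subunit a reads at 0–1 h. At 4–5 h it gave 26.3% (5 of 19; 9.15–51.2%) and 20.0% (3 of 15; 4.33–48.1%). The remainder was Vha100-1 (3R 29131193–29137980), a copy known for its role in neurons, with 37, 29, 14 and 12 reads. Vha100-1 did not pass the test (38.9 ± 5.05 against 32.8 ± 10.1 CPM, log2 change −0.32, SE 0.40, adjusted p = 0.50, edgeR), so its larger share accompanied the fall of Vha100-2 and no rise of its own was called. The intervals of the stages did not overlap in any pair of libraries. Vha100-2 and Vha100-1 overlap Vti1b and Alg13 on the opposite strand, and the subunit C gene Vha44 overlaps Hmgs likewise. Whether counting used strand is not given in the sources used here.

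**Figure D4:**
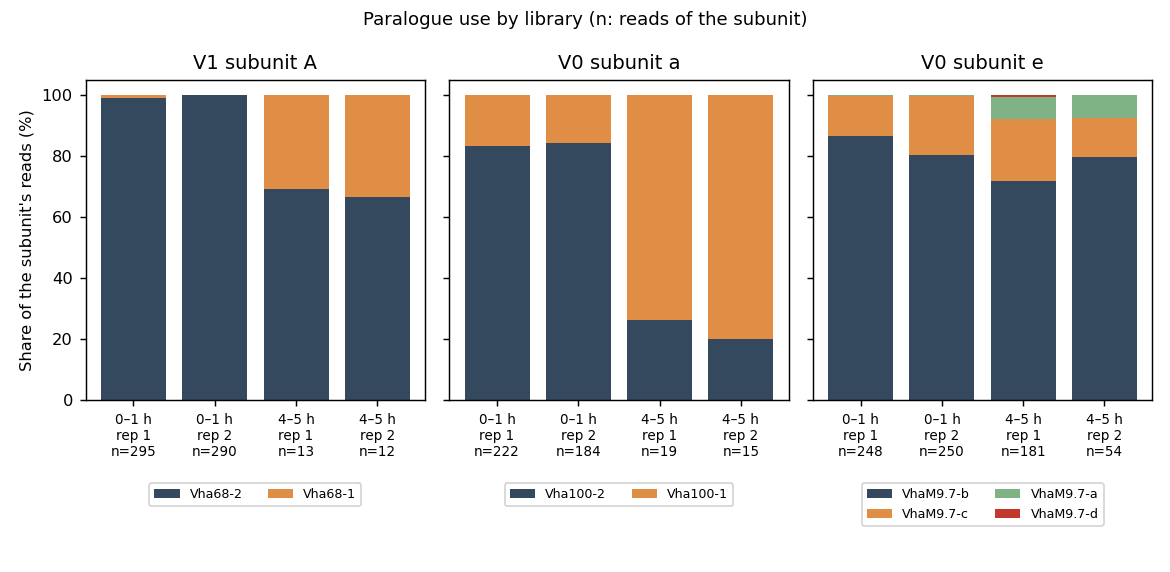
Share of each subunit's reads (y, %) by gene copy in each library (x, with the number of reads n), for subunits A, a and e. Vha100-2 makes up 83.3% and 84.2% of subunit a reads at 0–1 h and 26.3% and 20.0% at 4–5 h, on 19 and 15 reads.

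Shifts in A and e were smaller. Vha68-2 gave 99.0% and 100% of subunit A reads at 0–1 h and 69.2% (9 of 13; 38.6–90.9%) and 66.7% (8 of 12; 34.9–90.1%) at 4–5 h. Vha68-1, its close copy on the same arm, had 3, 0, 4 and 4 reads, a 4–5 h to 0–1 h ratio of 5.33 in CPM (exact 95% counting interval 1.28–31.2), and a fit with no filter did not call it (log2 change 2.25, SE 1.14, adjusted p = 0.0899, edgeR). That ratio depends on the TMM scaling, and mean TPM was 0.711 ± 1.01 at 0–1 h and 1.05 ± 0.497 at 4–5 h. Such copies make it uncertain which gene the reads came from. VhaM9.7-a had 1, 1, 13 and 4 reads, which is 0.403%, 0.400%, 7.18% and 7.41% of subunit e reads, a ratio of 17 in CPM (4.04–152). It did not pass the count filter, and a fit with no filter called it higher (log2 change 3.75, SE 0.95, adjusted p = 0.000276, edgeR). VhaM9.7-b stayed the main copy of e, at 86.7% and 80.4% against 71.8% and 79.6%. For D, F, c, c″ and d the leading copy held at least 95.1% of reads in every library.

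Isoform usage could be tested in 4 Vha genes, and 1 passed. In Vha55 the annotated form RB starts 128 bp upstream of RA and shares its 3′ end. RB took 53.4% (196 of 367 reads; 48.2–58.6%) and 76.1% (270 of 355; 71.3–80.4%) at 0–1 h and 0 of 17 and 0 of 18 reads at 4–5 h, with exact upper limits of 19.5% and 18.5% (adjusted p = 0.0283, diffSpliceDGE gene-level test, where 13.1% of the 823 genes tested passed). The call was lost in each fit without 1 library, at adjusted p from 0.132 to 0.314, and with the Simes test (adjusted p = 0.0786). The forms differ by 64 nt in total length, and RB has 4 exons where RA has 3. Their start sites lie at the 5′ end, the last part of the molecule to be read.

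The others did not pass: Vha13 (adjusted p = 0.586), Vha26 (adjusted p = 0.831) and Vha16-1 (adjusted p = 0.866, diffSpliceDGE). In Vha16-1 the form RC took 20.1%, 17.1%, 14.2% and 12.4% of reads, alike within each stage. Vha13 varied within a stage. Its longer 3′ form, RB, which extends 240 bp beyond RA, took 13.7% and 0.837% of reads in the 0–1 h replicates and 13.1% and 32% at 4–5 h. For Vha26 the form RB took 86.9%, 88.9%, 61.2% and 58.5%. The other reads of the 4–5 h libraries were mostly RA in replicate 1 (34.4%) and all RC in replicate 2 (41.4%). In Vha44 the form RC had 81.2 estimated reads in 0–1 h replicate 1 and 0 in replicate 2. In Vha13 at 0–1 h, in Vha44 at 0–1 h and in the lesser forms of Vha26 the replicates of a stage thus differed, while Vha16-1-RC and Vha26-RB were alike within stages.

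The log2 changes of the members were set beside their length and level. Across the 16 tested genes the Spearman correlation of the log2 change with read-weighted transcript length was −0.332, beside −0.220 over all tested genes, and with mean 0–1 h TPM 0.0882, beside −0.0312. All of these points share the same 4 libraries. Median read-weighted length was 2081 nt for the Vha genes and 1917 nt for all tested genes. Short main transcripts were found among called and uncalled genes, with Vha13 (703 nt) reduced 5.45-fold and Vha14-1 (659 nt) not called. The genes with the largest falls had long ones: Vha100-2 (3044 nt), Vha68-2 (2486 nt) and Vha55 (2722 nt). Vha16-1 (2833 nt) and Vha100-1 (3066 nt) were long too and were not called.

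Among partners of the pump, all 3 listed regulators fell, where 31.5% of all tested genes were called lower. Mitf, the fly member of the MITF/TFEB family that activates Vha genes, had 190, 153, 4 and 2 reads (203 ± 22.4 CPM at 0–1 h and 7.0 ± 0.48 CPM at 4–5 h, log2 change −4.80, SE 0.41, adjusted p = 5.9e-18, edgeR). Rbcn-3A and Rbcn-3B, which help assemble V1 on V0, had log2 changes of −1.92 (SE 0.48, adjusted p = 0.00043) and −2.34 (SE 0.61, adjusted p = 0.00065, edgeR). Of 9 lysosomal membrane genes 6 were tested and 5 fell, with a median of −1.74, among them Lamp1 (266 ± 2.01 to 130 ± 9.62 CPM), spin (log2 change −2.13) and the calcium channel gene Trpml (30, 24, 4 and 0 reads). With library size only these 3 and 6 genes were all called lower, where 63.3% of all tested genes were.

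For 3 other lists the calls went in both directions, as they did over all tested genes (28.6% higher and 31.5% lower, or 10.9% and 63.3% with library size only). Of 6 tested lysosomal enzyme genes (13 listed) 3 rose and 2 fell, with cathD, an aspartic protease gene, at a log2 change of 2.23 (SE 0.38), CtsF at 1.93 and CtsL1 at −1.42 (SE 0.27). With library size only 1 rose and 3 fell. Of 15 genes of the lysosomal mTORC1 platform, which senses amino acids together with the pump, 4 rose and 4 fell, with a median of −0.35. Lamtor2 rose from 15.4 ± 2.32 to 96.2 ± 4.13 CPM, mio rose by 2.75 on the log2 scale, and Sesn fell (log2 change −2.10), while with library size only 2 rose and 10 fell. The shares of the platform genes were near those of all genes on both scales. Of 13 endosomal traffic genes 3 rose and 3 fell, with a median of 0.06 (0 and 9 with library size only), including Clc, a clathrin light chain gene (1.18, SE 0.22), AP-2alpha (−1.53, SE 0.31) and Rab5 (−1.21, SE 0.27), again with shares near those of all genes.

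The F-type ATP synthase is the rotary relative of the pump in mitochondria, and runs in the ATP-making direction. Of its 16 listed genes 12 were tested, 9 rose and 3 fell, where 28.6% of all tested genes rose and 31.5% fell. Their median log2 change was 0.97, beside −1.27 for the Vha genes. With library size only 1 rose and 4 fell, where 10.9% of all tested genes rose and 63.3% fell. The median was then −0.21, beside −2.47 for the Vha genes. ATPsynG rose from 453 ± 121 to 2000 ± 39.6 CPM, and blw, the alpha subunit and thus the counterpart of the B subunit, fell from 525 ± 69.9 to 227 ± 12.8 CPM (log2 change −1.21, SE 0.22). ATPsynbeta, the counterpart of the A subunit, had a log2 change of 0.80 (SE 0.21, adjusted p = 0.00073, edgeR). Reads of all Vha genes per read of all ATP synthase genes, a ratio that needs no scaling between libraries, were 0.677 and 0.655 at 0–1 h and 0.221 and 0.157 at 4–5 h. The stages did not overlap, and the smallest p of an exact permutation test is again 0.333.

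**Figure D5:**
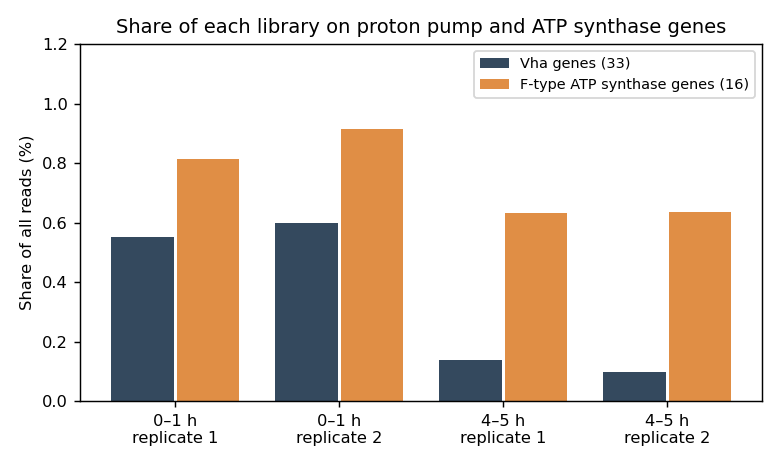
Share of all reads (y, %) on the 33 Vha genes and the 16 F-type ATP synthase genes in each library (x). The Vha share is 0.551% and 0.598% at 0–1 h and 0.140% and 0.100% at 4–5 h, while the ATP synthase share is 0.814%, 0.914%, 0.633% and 0.637%.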

How the data were processed

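The authors deposited 1 Salmon table per library. Their read numbers are expected counts per annotated transcript, not normalised, and the deposited TPM, scaled by effective length, come from the authors in the same tables. The submitters' processing notes name minimap2, Salmon and the build BDGP6; the sources used here give no versions or settings. Each table lists 30652 transcripts, of which 30280 matched the Ensembl release 115 annotation of BDGP6 by identifier and 372 did not. Other values in the deposited tables, transcript lengths, are in nt.

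Expected counts were summed per gene, rounded and tested in R 4.3.3 by edgeR 4.0.16 (filterByExpr at a minimum count of 10, TMM, robust quasi-likelihood fit, stage as the only term), with Benjamini-Hochberg adjustment over 6042 genes and a threshold of 0.05. The SE was derived from the log2 change and its F statistic. Levels are CPM on TMM-scaled library sizes. Isoform usage was tested with diffSpliceDGE on transcripts. Alternatives used DESeq2 1.42.0 and limma 3.58.1 on log2(TPM + 1). With 2 libraries per stage, a gene that was not called is not shown to be unchanged. Intervals and the floor of 3 reads cover counting error only.

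The members and lists were chosen with earlier results of these data known. Full values are given for the gene with the most reads in each subunit, called genes of at least 2-fold and genes with a passed isoform test, and up to 3 genes per list by adjusted p. Vha100-1 and VhaM9.7-c as remaining tested copies, ATP6AP2, and blw and ATPsynbeta as counterparts of pump subunits were named outside this rule, after their values were seen. The TPM ratios between pump genes were outside it too. Motifs in promoters were not analysed here. The labels do not say whether replicate numbers pair the samples of the stages.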

Additional observations from a re-analysis of the deposited data

How the results depend on the processing

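The count of 10 lower Vha genes became 16 with library size only, became 16 too in limma on TPM at a pseudocount of 1 or 0.1, and 8 to 12 in the other alternatives run but 1, library size without ribosomal protein and rRNA genes, with 14. The count of 0 higher became 1 with no filter (VhaM9.7-a), with thinning to the smallest library and without 4–5 h replicate 2 (both Vha14-1), and ranged from 0 to 1 over the fits that left out 1 library. The median of −1.27 was −0.61 with no filter, where 7 further genes of at most 19 reads were tested, −1.86 with library size without ribosomal protein and rRNA genes, −2.47 with library size only, and −3.17 and −3.29 on TPM. Vha14-1 and VhaM9.7-c turned lower, at −0.77 and −1.14 with library size only, −1.54 and −2.09 on TPM at a pseudocount of 1, and −1.55 and −2.16 at 0.1; the cause was not tested. V1 shares averaged 66.5% at 0–1 h and 57.2% at 4–5 h by TPM, and 71.2% and 64.7% without Vha16-1, and the share of Vha16-1 in c at 4–5 h was 98.2% by TPM.

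The isoform count of 1 became 0 with the Simes test, in each fit without 1 library (0 to 0) and with the replicate block (adjusted p = 0.407 for Vha55). Same-numbered libraries had deviations correlated at −0.159. This single value cannot decide whether the samples were collected in pairs. The replicate block left 10 lower and 0 higher Vha genes, and changed no member's call; crossed numbers, chosen after seeing the data, left 10 and 0 too. Of all genes 1730 were higher and 1903 lower, against 656 and 3823 with library size only, 312 and 4798 on TPM at a pseudocount of 1, 293 and 4674 at 0.1, and 1124 lower with DESeq2. Few Vha reads at 4–5 h, with 8 to 25 reads for several subunits in replicate 2, limit what can be said of copies and forms there. Some counts were also small in replicate 1, the library with the most reads, at 9 for Vha68-2 and 17 for Vha55.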
